A study of Rattus norvegicus with 4 samples.

Results

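Of 7 genes of the neuronal cytoskeleton and of axon growth, none passed the test for a change after 4 h of depolarization. These genes were Map2, Mapt, Nefl, Nefm, Nefh, Tubb5 and Gap43. They were taken as every probe set whose platform symbol was one of these names, which gave 18 of the 1263 probe sets that are not array controls, and 7 of 720 genes. Map2 had 5 probe sets, Tubb5 4, Mapt 3, Nefl and Nefh 2 each, and Nefm and Gap43 1 each. A probe set is a group of short array probes that together give 1 intensity for a transcript.

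The cells were primary cultures of rat (Rattus norvegicus) cortex taken on embryonic day 17. They were grown for 14 days in Neurobasal medium with the B27 supplement. Control cultures received PBS for 4 h, and KCl cultures received 25 mM KCl for 4 h. Each group had 2 arrays, numbered by their titles (control 1 and 2, KCl 1 and 2), and the groups were taken from titles and treatment protocols. The description label gives the KCl samples the same unstimulated state as the controls, so the labels conflict there. Fos, an immediate-early gene that marks neuronal activity, read 720 and 646 in controls and 9745 and 9883 after KCl. Separate cultures behind the replicate arrays are not stated in the labels, so every p-value here rests on a spread that may be technical.

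Microtubules are hollow polymers of α- and β-tubulin that give axons and dendrites their shape and carry transport. Map2 encodes the microtubule-associated protein that marks dendrites, and Mapt encodes tau, its counterpart in axons. The light, medium and heavy neurofilament chains, from Nefl, Nefm and Nefh, assemble into the intermediate filaments that set axon calibre. Gap43 encodes a membrane protein of growth cones and presynaptic endings, and Tubb5 encodes a β-tubulin.

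Of the 18 probe sets, 17 passed the filter that left out the dimmest 25% of probe sets, and 947 probe sets were tested in all. After Benjamini-Hochberg adjustment over the 947, 0 of the 17 passed at an adjusted p below 0.05 in limma, where 102 of 947 (10.8%) passed. Before adjustment, 1 of 17 had a p below 0.05 where 242 of 947 (25.6%) did. By an ordinary t statistic, 0 of 17 had an unadjusted p below 0.05 where 157 of 947 did. After adjustment 0 of all 947 passed by that statistic, so it cannot tell the members from other probe sets. The log2 changes (KCl minus control) of the 17 ran from −0.31 to 0.68, 11 below 0 and 6 above. Their median was −0.07 and the median of their sizes 0.11, beside −0.10 and 0.29 over all 947. The members' median was near that of all probe sets, and the sizes of their changes were smaller at the median.

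The 95% interval of the log2 change shows how large a change these arrays leave possible, and it is given per probe set without adjustment. It lay within a 2-fold change either way (log2 between −1 and 1) for 14 of the 17, and for 544 of all 947 (57.4%). It lay within 0.5 either way for 8 of the 17, and for 170 of the 947 (18.0%). All 8 came from the 10 members with a mean intensity of at least 1000. Among all tested probe sets at least that bright, 109 of 177 had an interval within 0.5. An interval within a 2-fold change was found for all 10 of these members and for 159 of the 177. Below that intensity it was found for 4 of 7 members and 385 of 770 probe sets. The median size of the log2 change was 0.09 for the 10 brighter members and 0.19 for the 177. Below that intensity it was 0.18 for the members and 0.33 for the 770. The part of brightness in the members' shares was not tested. The members' standard errors (SE) ranged from 0.10 to 0.56, so the dim probe sets could not show a change of moderate size.

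**Figure D1:**
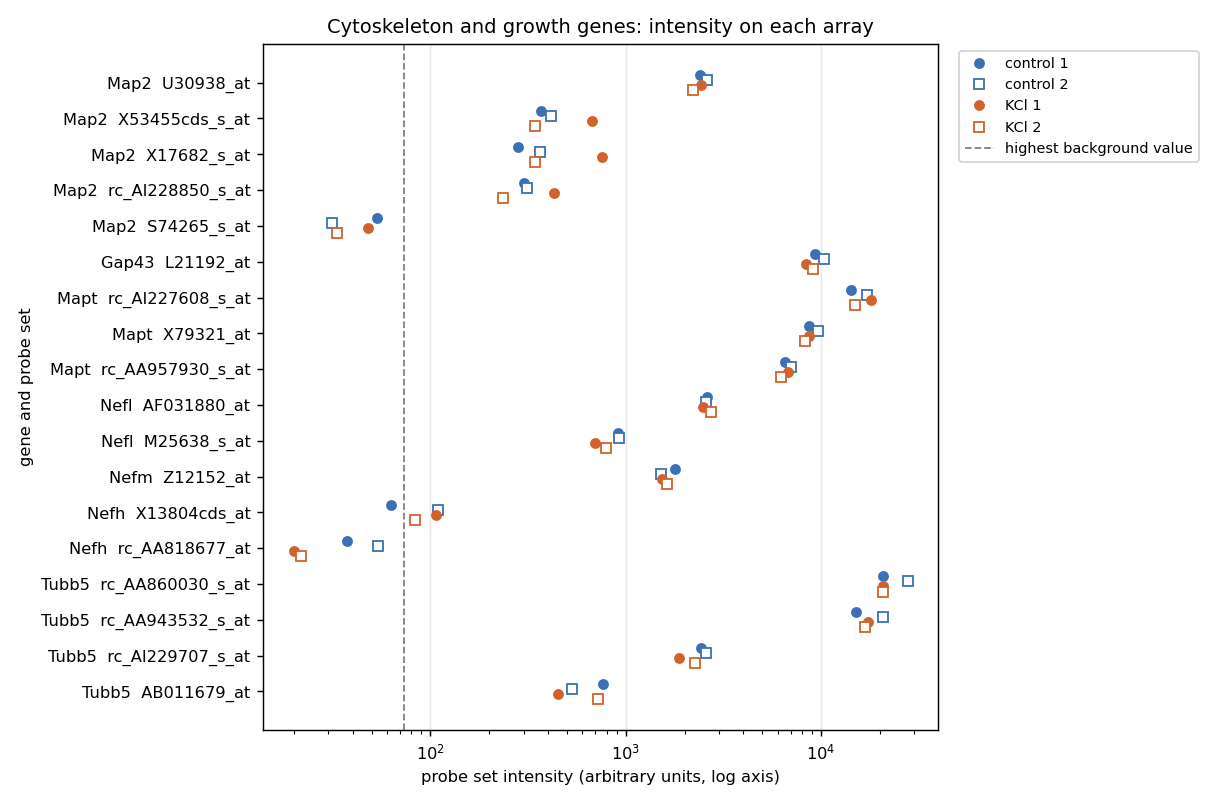
Intensity of each of the 18 member probe sets (rows) on the control arrays (blue) and the KCl arrays (orange), in arbitrary units on a log axis; filled circles are replicate 1, open squares replicate 2, and the dashed line is the highest background value, 73.7. KCl 1 stands to the right of the other arrays for X53455cds_s_at, X17682_s_at and rc_AI228850_s_at of Map2, and the points of Gap43 and Mapt lie close together.

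Map2 was read by 5 probe sets. The probe set U30938_at read 2406 and 2622 in controls and 2434 and 2214 after KCl, and the groups overlapped. Its mean was 2514 ± 152 (SD, n = 2) in controls and 2324 ± 156 after KCl, and its log2 change was −0.11 ± 0.11 (SE; adjusted p = 0.56 in limma). The 95% interval ran from −0.37 to 0.14, which is 0.776 to 1.10 as a ratio of KCl to control. With 1 array left out, its change ran from −0.18 to −0.05.

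The other probe sets of Map2 gave a wider spread. X17682_s_at read 280 and 363 in controls, and 759 on KCl 1 but 345 on KCl 2, with a log2 change of 0.68 ± 0.33 (adjusted p = 0.23). X53455cds_s_at read 367 and 416 in controls, 673 on KCl 1 and 343 on KCl 2, with a change of 0.30 ± 0.28 (adjusted p = 0.54). rc_AI228850_s_at read 302 and 311 in controls, 431 on KCl 1 and 236 on KCl 2, with a change of 0.06 ± 0.26 (adjusted p = 0.92). In each of these 3, KCl 1 was the highest array, and KCl 2 lay below at least 1 control array, so the groups overlapped. S74265_s_at read 53.4 and 31.5 in controls and 47.7 and 33.1 after KCl, with no array above background. Background here is the highest value, 73.7, of 19 probe sets for bacterial and yeast transcripts, and the level of Map2 cannot be read from S74265_s_at.

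KCl 1 read 1.96 times KCl 2 on X53455cds_s_at, 2.20 times on X17682_s_at and 1.83 times on rc_AI228850_s_at, against 1.10 times on U30938_at. A gap between the KCl arrays of 1.83-fold or more in this direction, a limit set from these probe sets themselves, was found in 38 of the 947 tested probe sets (4.01%), the reverse gap in 48, and a gap of this size between the control arrays, either way, in 84. Among the 224 with a mean intensity between 200 and 600, 5 had it, and 3 of those 5 were the Map2 probe sets. In this range of intensity, chosen around these probe sets, the reverse gap was found in 1 of the 224 and a gap between the control arrays in 3. These 3 probe sets read the same gene on the same array and are not independent.

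Their changes rested on which KCl array was used. Without KCl 1, X17682_s_at changed by 0.11, X53455cds_s_at by −0.19 and rc_AI228850_s_at by −0.38, and none passed. Without KCl 2, X17682_s_at rose by 1.25 and X53455cds_s_at by 0.78 on the log2 scale, and both passed. The adjusted p of X17682_s_at ran from 1.8e-08 to 0.84 over its alternatives and that of X53455cds_s_at from 7e-04 to 0.81. Without KCl 2, 4 of the 17 member probe sets passed where 178 of 947 (18.8%) did, the other two being rc_AI229707_s_at and AB011679_at of Tubb5. In that fit the spread comes from the control pair alone, and the single KCl array is assumed to vary like it. Without control 1, without control 2 or without KCl 1, 0 of the 17 passed, where 1.48%, 1.16% and 11.1% of the 947 did.

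**Figure D2:**
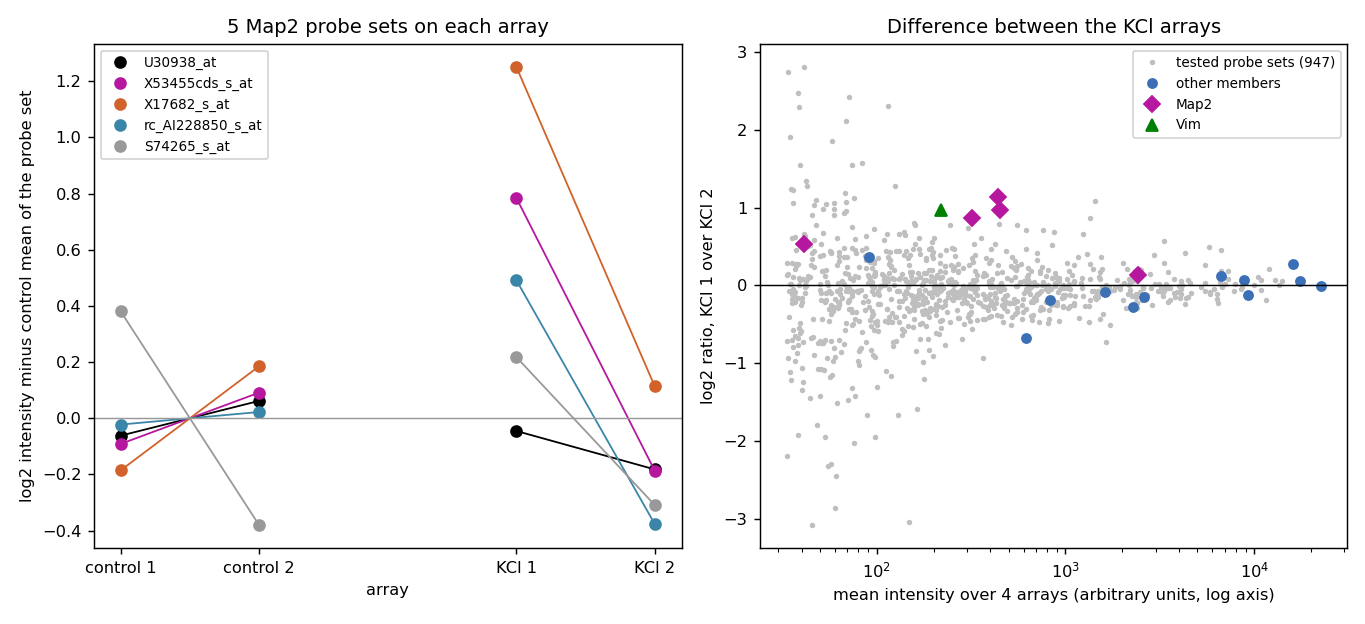
Left, log2 intensity of the 5 Map2 probe sets on each array, minus the probe set's control mean; lines join the arrays of a group. Right, log2 ratio of KCl 1 over KCl 2 against mean intensity (log axis) for the 947 tested probe sets in grey, with Map2 (diamonds), the other members (circles) and Vim (triangle) marked. X53455cds_s_at, X17682_s_at and rc_AI228850_s_at stand above most probe sets of like intensity, with KCl 1 at 1.83 to 2.20 times KCl 2, as does Vim at 1.96 times.

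Whether the Map2 probe sets responded differently was tested on their differences within each array, over all 418 pairs of tested probe sets that share a symbol, from 194 genes. None of the 10 Map2 pairs passed in limma, and 0 of the 418 pairs did (0.00%), with 48 of 418 (11.5%) at an unadjusted p below 0.05. Of the Map2 pairs, 1 had an unadjusted p below 0.05 in limma while by an ordinary t statistic 0 did. It was the change of rc_AI228850_s_at minus that of X17682_s_at, at −0.62 ± 0.20 (95% interval −1.22 to −0.03, adjusted p = 0.42 in limma). The widest difference in log2 change was that of U30938_at minus that of X17682_s_at, at −0.80 ± 0.42 (95% interval −2.01 to 0.42; adjusted p = 0.55). The interval is wide, so these arrays do not show that the probe sets respond alike. The log2 changes of the Map2 probe sets spanned 0.80, where the median span of 58 genes with at least 3 tested probe sets was 0.52 and 11 of the 58 had a wider one. A span can only widen as probe sets are added, and the comparison did not allow for the 5 of Map2. Its upper end was X17682_s_at, whose change was 0.11 without KCl 1.

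The astrocyte markers moved on the same arrays. Of 10 listed, 7 had a probe set with their symbol. Gfap, on this list and on that of intermediate filaments, had none and was not counted. Since 118 probe sets have no symbol, this does not show that the array lacks it. Of the 7 measured, 6 rose and none fell, beside 58 of 570 genes (10.2%) that passed in either direction. The 6 were Apoe, Glul, S100b, Slc1a3, Vim and Gja1. Of the 7, 0 passed without control 1, without control 2, without the intensity trend or by an ordinary t statistic, 3 with the replicate block or median centring, and 4 without KCl 1, with quantile normalization or with dim probe sets kept. The sum of their intensities was 5484 and 5220 in controls, 12551 on KCl 1 and 9974 on KCl 2. None of the 7 was at 0, and Slc1a2, a glial glutamate transporter gene, was within background on all arrays. Slc1a3, another such gene, read 454 and 334 in controls and 876 and 1003 after KCl. The median ratio of KCl 1 to KCl 2 was 1.33 for these markers, against 0.954 over 570 genes. Vim, the gene of the intermediate filament vimentin, read 423 on KCl 1 and 216 on KCl 2. Apoe, the brightest of the markers and the largest part of the sum, read 6925 and 5196. Slc1a3 and Slc1a2 went the other way, at 876 and 1003 and at 40.1 and 43.4, and the other markers were higher on KCl 1. The part of other cells in the Map2 readings was not tested, and in a bulk culture more cells of a type and more RNA per cell cannot be told apart.

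No probe set of Mapt passed. rc_AI227608_s_at read 14312 and 17103 in controls and 18003 and 14863 after KCl, with a log2 change of 0.06 ± 0.13 (adjusted p = 0.80). X79321_at read 8701 and 9654 in controls and 8713 and 8275 after KCl, with a change of −0.11 ± 0.10 (adjusted p = 0.54). rc_AA957930_s_at read 6574 and 7048 in controls and 6742 and 6216 after KCl, with a change of −0.07 ± 0.10 (adjusted p = 0.69). The groups overlapped in each, and the 95% intervals together ran from −0.34 to 0.36. The widest difference in response between its probe sets was 0.17 ± 0.16 (95% interval −0.29 to 0.63; adjusted p = 0.73), and the log2 changes of Mapt spanned 0.17 where those of Map2 spanned 0.80. Mapt had 3 tested probe sets and Map2 5, and whether these spans differ was not tested.

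Among the neurofilament genes, the light and medium chains were well above background and the heavy chain was not. AF031880_at of Nefl read 2606 and 2586 in controls and 2473 and 2748 after KCl, a log2 change of 0.01 ± 0.11 (95% interval −0.24 to 0.25; adjusted p = 0.97). The other Nefl probe set, M25638_s_at, read 913 and 923 in controls and 695 and 792 after KCl, so both KCl arrays lay below both controls. Its mean was 918 ± 7.21 (SD, n = 2) in controls and 743 ± 68.6 after KCl, a log2 change of −0.31 ± 0.13 (95% interval −0.60 to −0.02; adjusted p = 0.18). It was the 1 member with an unadjusted p below 0.05 and did not pass over the 947. The change of one Nefl probe set minus that of the other was 0.31 ± 0.15 (95% interval −0.11 to 0.74; adjusted p = 0.50), so a difference between them was not shown.

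Nefm read 1795 and 1520 in controls and 1527 and 1623 after KCl, with overlapping groups and a log2 change of −0.07 ± 0.12 (95% interval −0.35 to 0.21; adjusted p = 0.76). X13804cds_at of Nefh read 63.0 and 110 in controls and 107 and 83.5 after KCl, above background on 3 of 4 arrays, with a change of 0.18 ± 0.36 (adjusted p = 0.79). Its interval, −0.64 to 1.01, reaches a doubling, so little can be said of Nefh. The other Nefh probe set, rc_AA818677_at, was the 1 member not tested. It read 37.4 and 53.7 in controls and 20.0 and 21.8 after KCl, all within background, and its mean of 33.2 lay just under the limit of 33.3 for testing. Both of its KCl values were below both controls.

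Gap43 was bright on its single probe set. It read 9271 and 10310 in controls and 8349 and 9136 after KCl, so both KCl values lay just below both controls. The mean was 9790 ± 735 (SD, n = 2) in controls and 8742 ± 556 after KCl, with a log2 change of −0.16 ± 0.11 (95% interval −0.41 to 0.08; adjusted p = 0.38), and of −0.24 to −0.09 with 1 array left out. The gap from the higher KCl array to the lower control was smaller than that between the control arrays. As a ratio of KCl to control the interval ran from 0.755 to 1.06.

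The 4 probe sets of Tubb5 all had a log2 change below 0, and none passed. rc_AA860030_s_at read 20831 and 27729 in controls and 20694 and 20770 after KCl, a log2 change of −0.21 ± 0.14 (adjusted p = 0.37), and of −0.42 to −0.01 with 1 array left out. Control 1 lay beside the KCl arrays and control 2 above them. rc_AA943532_s_at read 15146 and 20856 in controls and 17442 and 16815 after KCl, a change of −0.05 ± 0.15 (adjusted p = 0.85). rc_AI229707_s_at read 2433 and 2563 in controls and 1880 and 2274 after KCl, a change of −0.27 ± 0.12 (95% interval −0.55 to 0.01; adjusted p = 0.21). AB011679_at read 767 and 532 in controls and 451 and 722 after KCl, a change of −0.16 ± 0.25 (adjusted p = 0.71). The groups separated on rc_AA860030_s_at and rc_AI229707_s_at, and overlapped on the other two. With quantile normalization the change of rc_AA860030_s_at was 0.00. Without KCl 2, rc_AI229707_s_at and AB011679_at passed as lower, and without KCl 1 AB011679_at had a change of 0.18. The β-tubulin genes are close copies of each other, and the suffix _s_at marks probe sets that can match more than 1 transcript, so which tubulin these signals come from is uncertain. Of the 18 member probe sets, 10 have this suffix. They include every Map2 probe set but U30938_at, the brightest Mapt probe set and M25638_s_at of Nefl. Which transcripts these probe sets read was not checked.

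**Figure D3:**
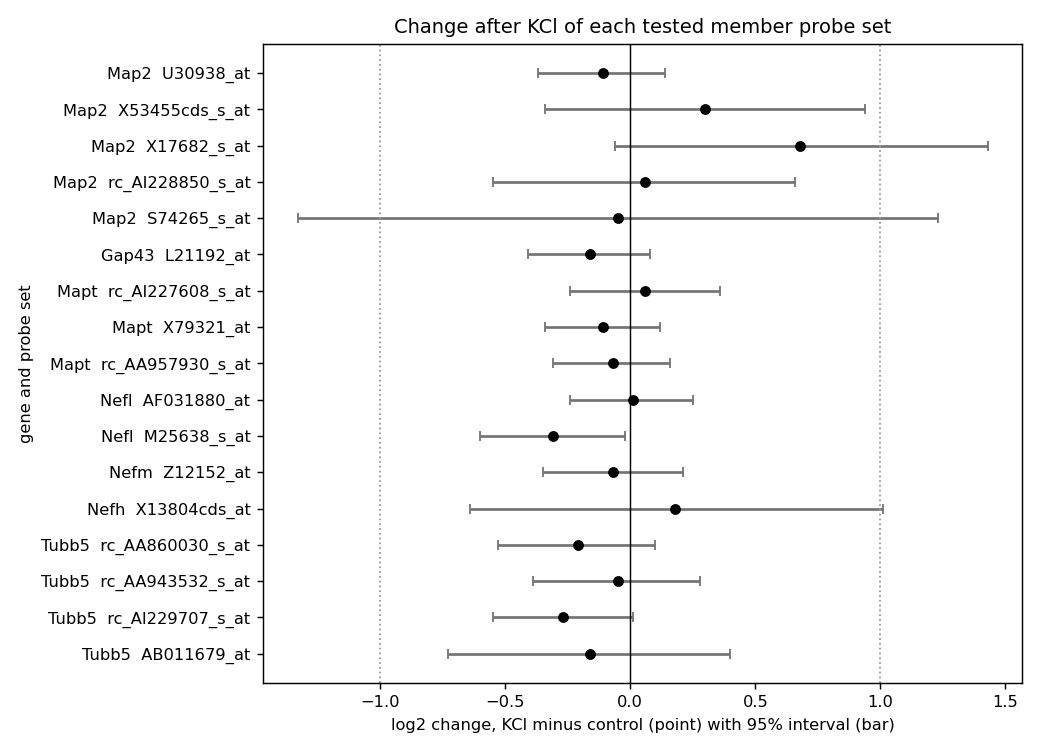
Log2 change, KCl minus control, of each of the 17 tested member probe sets (points) with its 95% interval (bars); dotted lines mark a 2-fold change. The intervals of 14 probe sets lie between the dotted lines, and those of X17682_s_at, S74265_s_at and X13804cds_at cross one.

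Both KCl arrays lay on one side of both controls in 4 of the 17 tested member probe sets, against 549 of 947 (58.0%) over all tested. In all 4 KCl was lower, and in 346 of the 549. Groups separated with KCl lower were thus found in 4 of the 17 members and in 346 of the 947 (36.5%). The 4 members were Gap43, M25638_s_at of Nefl, and rc_AA860030_s_at and rc_AI229707_s_at of Tubb5. The median log2 gap between control arrays was 0.18 for the members and 0.22 for all tested, and that between KCl arrays 0.19 and 0.21.

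The genes whose log2 values over the 4 arrays, centred on their own mean, lay nearest to those of U30938_at of Map2 among 563 other genes were Eno2, Atp1b1 and Slc6a11. Eno2 encodes the neuronal form of enolase, Atp1b1 a subunit of the sodium pump and Slc6a11 a GABA transporter. Their root mean square differences from Map2 were 0.048, 0.054 and 0.057 on the log2 scale. Nearest to Gap43 were Gnb2, which encodes a G protein β subunit, Hpca, which encodes the calcium sensor hippocalcin, and P2rx4, which encodes an ATP-gated channel, at 0.030, 0.034 and 0.036. These are distances over 4 arrays and carry no test.

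Of 94 other genes listed for the cytoskeleton and axon growth, 22 had a probe set with their symbol and 21 were tested, each through its brightest probe set. Of the 21, 1 rose and none fell (4.76%), beside 58 of 570 genes (10.2%), and 6 had an unadjusted p below 0.05. The median log2 change was 0.00, and −0.09 over the 570.

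None of the 3 other microtubule genes passed in limma, with 0 before adjustment and 1 by an ordinary t statistic before adjustment. Map1a, which encodes a microtubule-associated protein of mature neurons, had a log2 change of 0.10 ± 0.11, and Map1lc3b, whose product also serves autophagy, −0.21 ± 0.10. Map1b, whose product is abundant in growing axons, had 0.21 ± 0.27 on its brightest probe set and 0.83 ± 0.25 (adjusted p = 0.073) on another, which read 88.9 and 89.1 in controls and 170 and 148 after KCl. Neither Map1b value passed.

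The 2 other intermediate filament genes that had a probe set with their symbol were those of non-neuronal or immature cells. Vim, which is also an astrocyte marker, read 100 and 137 in controls and rose 2.59-fold (log2 change 1.37 ± 0.32; adjusted p = 0.031). Nes, the gene of nestin, a filament of neural progenitors, read 194 and 190 in controls and 376 and 271 after KCl, a change of 0.73 ± 0.21 that did not pass (adjusted p = 0.059). Vim did not pass without control 1, without control 2 or without KCl 1, with quantile normalization, with median centring, with dim probe sets kept, with the replicate block, without the intensity trend or by an ordinary t statistic. Without KCl 2 both Vim and Nes passed. The difference in response between these genes and the neurofilament genes was not tested.

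Synpo, which encodes the spine protein synaptopodin, was the 1 actin gene tested. It read 212 and 156 in controls and 120 and 76.8 after KCl, a log2 change of −0.92 ± 0.30 that did not pass (adjusted p = 0.092), and it passed as lower without KCl 1. None of 7 growth cone and axon growth genes passed in limma, with 1 before adjustment and 0 by an ordinary t statistic. These included Cntn1, which encodes the axonal adhesion protein contactin 1, at −0.32 ± 0.14, and Nrp1, which encodes the semaphorin receptor neuropilin 1, at −0.28 ± 0.20. L1cam, which encodes an adhesion protein of growing axons, read 3069 and 3233 in controls and 3162 and 3121 after KCl, and was chosen after its values were seen.

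Of 8 genes for kinases that act on cytoskeletal proteins, none passed on the brightest probe set in limma, with 2 before adjustment and 3 by an ordinary t statistic before adjustment. A less bright probe set fell for Mapk9, a stress-activated kinase gene (log2 change −0.87 ± 0.19; adjusted p = 0.024), which read 272 and 248 in controls and 144 and 140 after KCl. Its brightest probe set had −0.51 ± 0.15 (adjusted p = 0.062) and passed as lower with the dimmest 50% left out. Another Mapk9 probe set had −0.12 ± 0.16. A less bright probe set also fell for Prkcb, the gene of protein kinase C β (−0.45 ± 0.11; adjusted p = 0.038), while its brightest had −0.16 ± 0.10. Both kinases thus gave a call that depended on the probe set. Neither probe set passed without control 1, without control 2, with the replicate block, without the intensity trend or by an ordinary t statistic, and that of Prkcb also missed with quantile normalization, median centring or dim probe sets kept.

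All 8 neuron markers measured lay above background. Their summed intensity was 21327 and 21576 in controls and 19922 and 19986 after KCl. Of the 8, Snap25, which encodes a protein of vesicle fusion, rose, none fell and 6 had a log2 change below 0, with a median of −0.19. Before adjustment, 5 of the 8 had a p below 0.05 in limma, where 145 of 570 genes did, and 1 by an ordinary t statistic. The 5 were Snap25 and, as lower, Syp (−0.29 ± 0.10), Syn2 (−0.44 ± 0.15), Gria2 (−0.42 ± 0.15) and Stx1a (−0.25 ± 0.11). With quantile normalization Syp passed as lower. Snap25 did not pass without control 1, without control 2, with dim probe sets kept, with the replicate block, without the intensity trend or by an ordinary t statistic. None of 4 oligodendrocyte markers passed in limma (0 at an unadjusted p below 0.05, also by an ordinary t statistic). Of these 4, 2 were within background on all arrays. Itgam, the 1 microglia marker measured, was within background. Signal at the 3′ end over the 5′ end of the array's control transcripts, a measure of RNA integrity, was 1.16 and 1.22 in controls and 1.19 and 1.16 after KCl for Gapdh, and 1.08 and 1.13 against 1.09 and 1.09 for β-actin, so neither separated the groups. For hexokinase it was 2.25 and 2.00 in controls and 2.49 and 2.67 after KCl, so this ratio did separate the groups, with both KCl arrays higher. The parts of these differences in the members' values were not tested.

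**Figure D4:**
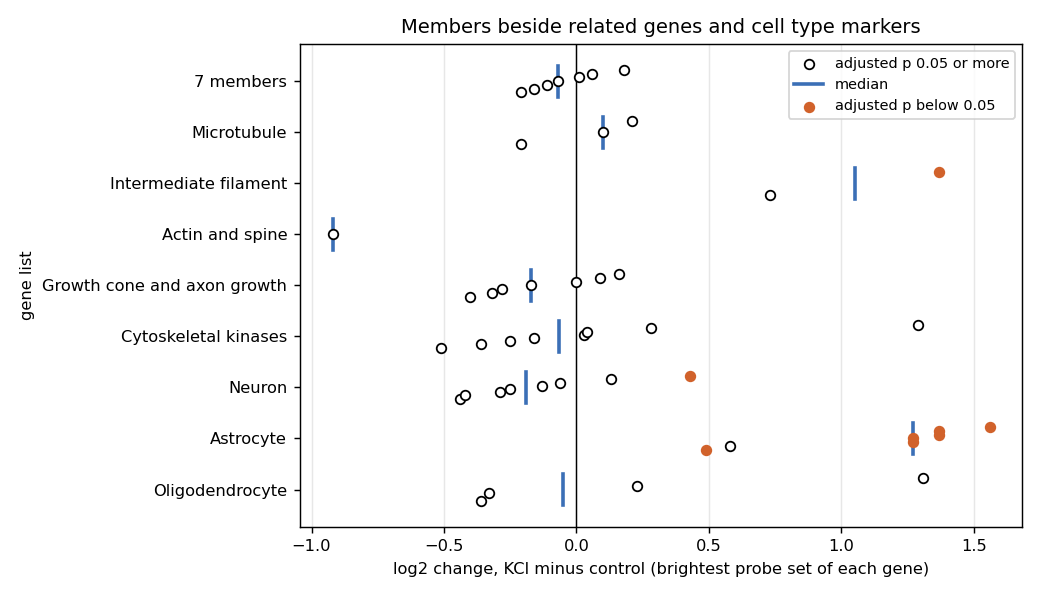
Log2 change, KCl minus control, of the brightest tested probe set of each gene, by gene list; filled points passed at an adjusted p below 0.05, open points did not, and blue bars are medians. The 7 members lie between −0.21 and 0.18, while Vim and 6 of 7 astrocyte markers, of which Vim is one, lie to the right as filled points, and Snap25 is the filled point among the neuron markers.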

How the data were processed

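Biotin-labelled cRNA from 5 µg of total RNA was hybridized to 1-colour Affymetrix arrays, per the labels' protocols. The authors deposited linear intensities, 1 value per probe set. Not given in the sources used here is how probes were summarised and scaled. The 2% trimmed means of the 4 arrays, 502.0 to 502.4, show a common scaling before deposit. Values were used as deposited, in log2. The table held 1322 probe sets, 59 of them controls. Symbols come from the platform annotation (1137 probe sets with 1 symbol, 8 with several, 118 with none), and the gene IDs of all 18 members have the same symbol in RefSeq. The array has no genome build, so no positions are given.

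Groups were compared with limma 3.58.1 in R 4.3.3 (lmFit, eBayes with an intensity trend, two-sided, Benjamini-Hochberg over 947 probe sets). Pairs of probe sets were fitted the same way. The fits were tested on simulated data. The number of arrays limits the precision: with 2 per group an exact permutation test cannot give a p below 0.33. The named genes are all members and, per list of cytoskeleton and growth genes, each gene that passed on any probe set and otherwise the 2 with the smallest p. Of the marker lists, the neuron and astrocyte genes that passed are named. Of the list of activity genes only Fos was given, though Junb, Nr4a1 and Bdnf also rose. Map1b, Nes, Slc1a2, Itgam, L1cam, Lsamp, Syp, Syn2, Gria2 and Stx1a fall outside this rule and were named after their values were seen. Gfap is named because no probe set had its symbol. The members and lists were chosen with earlier results of these data known. The alternatives were other scalings, a pseudocount of 16, other filters, a replicate block, each array left out, other variance models and 1 probe set per gene.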

Additional observations from a re-analysis of the deposited data

How the results depend on the processing

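Of 226 log2 changes of member probe sets under the alternatives, 207 kept their direction and did not pass, 15 changed sign and 4 passed. The sign changes with quantile normalization were S74265_s_at of Map2 (0.04), AF031880_at of Nefl (−0.04) and rc_AA860030_s_at of Tubb5 (0.00). Leaving out 1 array at a time, changes ran from −0.38 to 0.49 for rc_AI228850_s_at, −0.43 to 0.34 for S74265_s_at, −0.19 to 0.78 for X53455cds_s_at and 0.11 to 1.25 for X17682_s_at (Map2), −0.07 to 0.20 for rc_AI227608_s_at, −0.19 to −0.04 for X79321_at and −0.13 to −0.01 for rc_AA957930_s_at (Mapt), −0.22 to 0.59 for X13804cds_at (Nefh), −0.07 to 0.08 for AF031880_at and −0.40 to −0.21 for M25638_s_at (Nefl), −0.19 to 0.05 for Nefm, −0.24 to −0.09 for Gap43, −0.18 to −0.05 for U30938_at (Map2), and −0.50 to 0.18 for AB011679_at, −0.42 to −0.01 for rc_AA860030_s_at, −0.28 to 0.18 for rc_AA943532_s_at and −0.41 to −0.14 for rc_AI229707_s_at (Tubb5). The count of members passing was 0 to 4 without each array, and 0 under the other alternatives. All probe sets passing numbered 102, and 50 with the replicate block, 21 without the intensity trend, 0 by an ordinary t statistic (157 at an unadjusted p below 0.05), 58 with 1 probe set per gene and 11 to 178 without each array. Of the 21 related genes, 1 passed, and 0 with quantile normalization, median centring, no filter, the replicate block, no trend or an ordinary t statistic, 2 with the dimmest 50% left out, and 0 to 2 without each array. Pairs of probe sets passing numbered 4 with quantile normalization, 2 with the pseudocount and 3 with the dimmest 50% left out, none of them of a member. Same-numbered arrays deviated together with a correlation of −0.03, so the replicate numbers were not taken as pairs, and the block changed no member's call. The cause of these changes was not tested, beyond the smaller number of arrays or genes. Signal near background limits Nefh and S74265_s_at, whose fitted values above measure no change of Map2.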

Other observations

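Beside the 3 Map2 probe sets and Vim, the fifth of the probe sets with a mean intensity between 200 and 600 and KCl 1 at least 1.83 times KCl 2 was that of Lsamp, which encodes a neuronal adhesion protein of the limbic system. It read 377 and 221 in controls and 470 and 250 after KCl, so its control arrays differed in the same direction as its KCl arrays. On X53455cds_s_at, X17682_s_at and rc_AI228850_s_at of Map2 control 1 read 0.881, 0.773 and 0.969 times control 2, the opposite direction to the KCl arrays. AB011679_at of Tubb5 went the other way on the KCl arrays, with KCl 1 at 0.624 times KCl 2.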
